A study of Rattus norvegicus with 6 samples.

Results

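The genes described here encode the dystrophin and dystroglycan complex of Schwann cells and periaxin, a myelin protein tied to it. The 9 genes were chosen by name: Dmd, Utrn, Drp2, Dag1, Sgcb, Sgcd, Sntb1, Dtna and Prx. Of these, 8 were found among the 17327 genes that had a row of counts, Dtna was not analysed here, and 7 had enough reads to be tested, all of the 8 except Sgcd. RNA was sequenced from primary Schwann cells, the glia of peripheral nerves, which had been purified from sciatic nerves of adult female Wistar rats. In 3 samples soluble recombinant NRG1β1 (here NRG1), a ligand of the ErbB receptors, was given at 10 nM for 6 h, and in 3 mock samples the cells received an equal volume of its buffer, PBS with albumin. Both groups had first been starved for 18 h in medium with 2% foetal bovine serum and forskolin at 10 μM. Forskolin raises cAMP and with it the expression of myelin genes in cells without axons. Before starvation the cells had been grown, according to the study, with more serum and with soluble NRG1, so the mock cells had met NRG1 earlier. Samples 1, 2 and 3 of both groups come from independent preparations of cells, called cultures 1, 2 and 3 here, so that each culture gave 1 mock and 1 NRG1 sample. The cells were grown without axons, which limits them as a model of the myelinating cell in which this complex has been studied.

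Dystroglycan, the product of Dag1, is a laminin receptor. Its outer subunit binds laminins and agrin of the basal lamina through sugar chains, and its membrane-spanning subunit binds 1 member of the dystrophin family inside the cell. In Schwann cells that member can be a short product of Dmd, utrophin (Utrn) or dystrophin-related protein 2 (Drp2). Drp2 connects dystroglycan to periaxin (Prx) in the patches where the outer surface of the myelin sheath is held against the Schwann cell membrane, and these patches border the cytoplasmic channels called Cajal bands. Sarcoglycans (Sgcb, Sgcd) and sarcospan form a side complex in the membrane, while syntrophins (Sntb1) and dystrobrevins (Dtna) are adaptors bound to the tails of the dystrophins. Loss of Prx or of dystroglycan from Schwann cells is known to lead to defects of peripheral myelin.

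The RNA of all 3 dystrophin family genes, of Prx and of Sgcb was lower with NRG1, while Dag1 itself and Sntb1 did not pass the test. Of the 7 tested genes 5 fell and none rose at a threshold of 0.01 on the adjusted p, and the median log2 fold change of the 7 was -0.92, against -0.03 over all genes tested. The test was edgeR's quasi-likelihood test with the culture as a block, adjusted by the Benjamini-Hochberg method over the 9740 genes that had enough reads. Among all of these genes 5.51% fell at that threshold, 6.31% rose and 11.8% changed in either direction. All 5 were lower in each of the 3 cultures, as were 30.0% of all genes. At the stricter rule that also asks for an absolute log2 fold change over 1, 3 of the 7 fell, namely Drp2, Dmd and Prx, against 1.91% of all genes. With the fold change threshold placed inside the test none of the 7 passed, Drp2 coming nearest (adjusted p = 0.028). With no block for the culture none of the 7 passed either, and the adjusted p of Dmd was 0.163. Levels are given as CPM, which are read counts scaled by the size of the library and by TMM factors, and they are compared between samples but not between genes, since transcript lengths were not used.

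**Figure D1:**
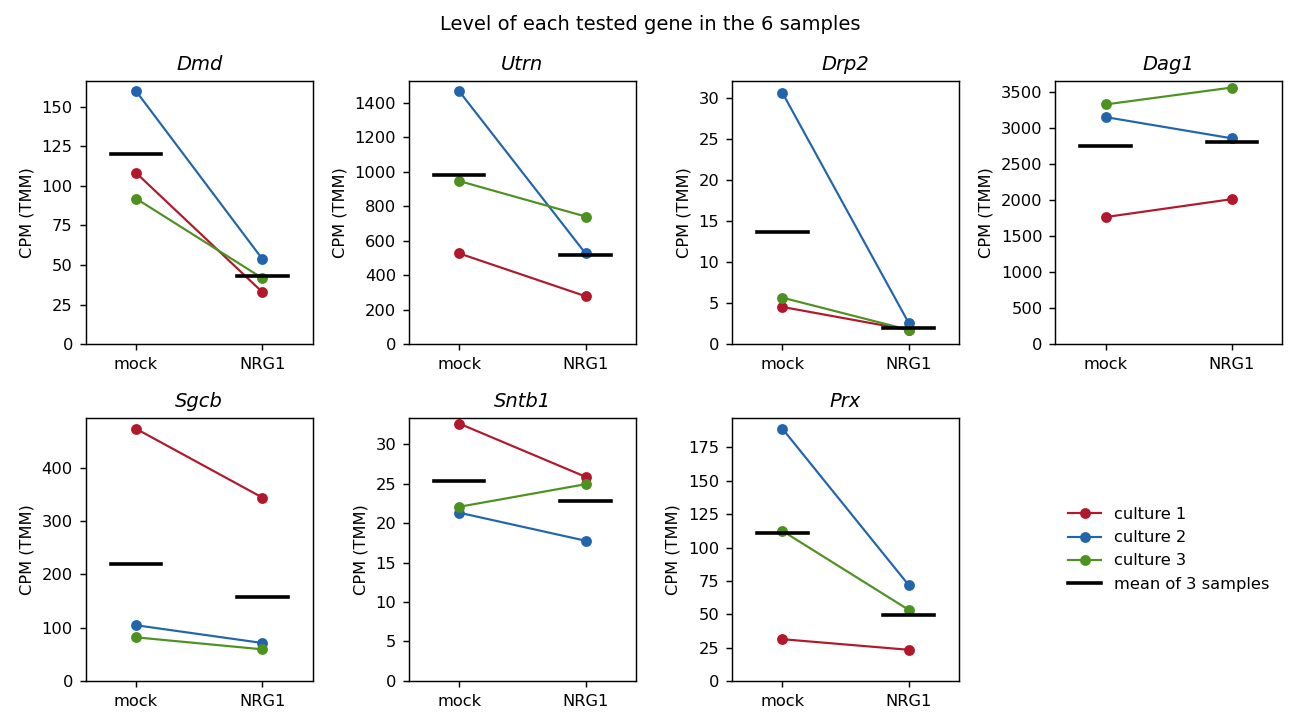
Level of each of the 7 tested genes in CPM (linear axes starting at 0) in mock and NRG1 samples. Each line joins the mock and the NRG1 sample of 1 culture, and black bars are means of 3 samples. Dmd, Utrn, Drp2, Prx and Sgcb were lower with NRG1 in all 3 cultures, while Dag1 and Sntb1 went both ways.

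The DNA before the start sites is shown for the genes that fell most, because several of them fell together. The sequences are the 250 bases upstream of each start listed by RefSeq on the GRCr8 assembly, 5′ to 3′ on the strand of the gene. The reads had been mapped to the older rn5 assembly, so these positions are for the sequence alone. Of the 9 genes 7 had a listed start, and Dag1 and Sntb1 had none. Dmd has 3 listed starts, the second of which lies 2073 kb downstream of the first and 31 bases before the last. The table does not say which product each start makes, and the counts per gene do not separate the short products of Dmd from the long one. Capitals mark matches, on either strand, to 5 sequences: GGAATG (TEAD factors), GCGNGGGCG (EGR factors), ACAANG (SOX factors), TGANTCA (AP-1) and TGACGTCA (CRE). In the same order 12.1%, 4.29%, 36.9%, 6.34% and 1.59% of the 33469 upstream windows in the table hold them.
Drp2, start 1, chrX:101900761-101901010, plus strand: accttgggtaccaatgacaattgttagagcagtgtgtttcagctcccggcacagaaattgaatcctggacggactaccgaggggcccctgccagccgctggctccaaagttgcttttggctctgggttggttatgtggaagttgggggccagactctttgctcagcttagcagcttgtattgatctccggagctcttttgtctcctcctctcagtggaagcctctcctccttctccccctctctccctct
Dmd, start 1, chrX:51205836-51206085, plus strand: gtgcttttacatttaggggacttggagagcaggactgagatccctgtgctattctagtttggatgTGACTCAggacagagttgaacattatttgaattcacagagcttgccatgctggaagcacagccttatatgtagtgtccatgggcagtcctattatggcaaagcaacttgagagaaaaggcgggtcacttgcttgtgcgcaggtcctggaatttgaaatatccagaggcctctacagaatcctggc
Dmd, start 2, chrX:53278763-53279012, plus strand: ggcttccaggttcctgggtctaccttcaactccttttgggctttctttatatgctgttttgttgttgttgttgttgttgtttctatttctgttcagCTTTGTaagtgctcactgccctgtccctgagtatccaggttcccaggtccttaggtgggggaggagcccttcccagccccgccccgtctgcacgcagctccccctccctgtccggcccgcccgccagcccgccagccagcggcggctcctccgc
Prx, start 1, chr1:91914171-91914420, plus strand: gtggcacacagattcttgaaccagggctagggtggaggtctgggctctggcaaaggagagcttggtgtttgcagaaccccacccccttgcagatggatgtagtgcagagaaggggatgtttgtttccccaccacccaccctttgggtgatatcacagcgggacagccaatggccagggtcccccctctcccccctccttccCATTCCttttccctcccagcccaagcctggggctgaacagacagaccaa
Utrn, start 1, chr1:9044488-9044737, minus strand: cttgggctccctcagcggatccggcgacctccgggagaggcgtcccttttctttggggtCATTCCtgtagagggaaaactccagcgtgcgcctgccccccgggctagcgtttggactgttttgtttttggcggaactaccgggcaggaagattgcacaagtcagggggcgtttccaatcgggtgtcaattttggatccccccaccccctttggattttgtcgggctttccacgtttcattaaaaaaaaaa

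The GGAATG sequence, 1 of the 5 searched for, was found upstream of Utrn, Prx and the second of the 2 listed starts of Drp2. The first Drp2 start and the listed starts of Dmd and Sgcb, which also fell, had no match to it. GGAATG was also found upstream of Dtna. The 12.1% given above is a share of windows, and Dmd had 3 windows and Drp2 2, so a count of genes cannot be set against it. Dag1 and Sntb1, which did not pass the test, had no window to compare. The 30 bases around the match are set side by side here, again with the match in capitals.
Utrn, chr1:9044661-9044690, minus strand: tttctttggggtCATTCCtgtagagggaaa
Prx, chr1:91914360-91914389, plus strand: ccccctccttccCATTCCttttccctccca
Drp2, start 2, chrX:101901138-101901167, plus strand: ttgcctgaggtcGGAATGgtgctgttagta
The match began 191 bases before the start in Utrn, 49 bases in Prx and 136 bases in Drp2. An AP-1 sequence lay upstream of the first Dmd start and upstream of Sgcb, which also held an EGR sequence. A SOX sequence lay upstream of the other Dmd starts, where it is the same match in overlapping windows. Sgcd had a SOX sequence at 2 places. No match to the CRE sequence lay in any of these windows. The sequences were not tested against the changes with NRG1, and a match of so few letters is a description only.

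Among the dystrophin family, Drp2 had the largest fitted change, though in culture 1 Dmd fell further. Its level was 4.54, 30.6 and 5.67 CPM in mock cultures 1, 2 and 3, and 1.73, 2.58 and 1.74 CPM in the NRG1 samples of the same cultures. Every NRG1 sample was below every mock sample, which was the case, in either direction, for 20.1% of all genes tested. The mock samples were far apart, and culture 2 stood above the others. The fit put this at -2.40 ± 0.35 on the log2 scale (fold change ± SE, adjusted p = 0.000279), a 5.29-fold lower level. The counts behind it were 34, 207 and 72 reads in mock and 13, 23 and 27 reads in NRG1 samples. Without culture 2 the log2 fold change was -1.58 (adjusted p = 0.00474), close to the -1.40 of Dmd without it, so the size of the fall changed without that culture while the call did not.

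Dmd, which encodes dystrophin and its shorter products, had the smallest adjusted p of the 7 genes. It was at 108.2, 159.8 and 91.9 CPM in mock cultures 1, 2 and 3 and at 32.9, 53.8 and 41.7 CPM with NRG1. The groups did not overlap, as for 20.1% of all genes tested in either direction, and the lowest mock sample was above the highest NRG1 sample. The log2 fold change came to -1.47 ± 0.14 (SE, adjusted p = 8e-06), a 2.76-fold lower level, and within the cultures the log2 ratios were -1.71, -1.57 and -1.14. By p-value it was in position 29 of the 9740 genes.

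Utrn, the autosomal relative of Dmd, fell in each culture as well, but unequally. Its level went from 526.2 to 278.4 CPM in culture 1, from 1466 to 526.3 CPM in culture 2 and from 945.7 to 740.1 CPM in culture 3. The groups overlapped, and the mock sample of culture 1 was level with the NRG1 sample of culture 2. The fitted log2 fold change was -0.92 ± 0.18 (SE, adjusted p = 0.00202). Without culture 2 it was -0.63 with an adjusted p of 0.0102, just over the threshold.

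Prx, which encodes periaxin, stood at 31.3, 189.0 and 112.4 CPM in mock and at 23.3, 71.8 and 53.3 CPM in NRG1 samples of cultures 1, 2 and 3. Culture 1 had the lowest level in both groups and the smallest fall, with a log2 ratio of -0.42 against -1.39 and -1.07 in cultures 2 and 3. The fit gave a log2 fold change of -1.01 ± 0.16 (SE, adjusted p = 0.000483), a 2.01-fold lower level. This is at the edge of the fold change threshold, and DESeq2 put it at -0.98. Of the 2 products of Prx, the long and the short periaxin, only the sum was counted.

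Dag1, the gene of the receptor itself, did not pass the test. It was at 1766, 3154 and 3330 CPM in mock and at 2015, 2859 and 3565 CPM in NRG1 samples, higher with NRG1 in 2 cultures and lower in the other. The log2 fold change was 0.05 ± 0.14 (SE, adjusted p = 0.83), and its 95% interval, from -0.25 to 0.35, leaves out a change by the factor of 2 that the fold change threshold asks for. Taken relative to Dag1 in the same culture, the log2 ratio of Drp2 was -1.48, -3.33 and -1.69 in cultures 1, 2 and 3, that of Dmd -1.90, -1.43 and -1.24, and that of Prx -0.61, -1.25 and -1.17. The ratio of Utrn to Dag1 was also lower with NRG1 in each culture, with a mean of -0.97 ± 0.46 (SD, n = 3). These ratios between genes were not tested.

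Sgcb, which encodes beta-sarcoglycan, fell by less. It was at 473.7, 104.6 and 81.9 CPM in mock and at 344.5, 71.3 and 59.3 CPM with NRG1. The level was highest in culture 1 by a wide margin in both conditions, and the groups overlapped. The log2 ratios within the cultures were close to each other, at -0.46, -0.55 and -0.46. The fitted log2 fold change was -0.49 ± 0.12 (SE, adjusted p = 0.008). The call was lost whichever culture was left out, with an adjusted p of 0.029 without culture 1, 0.0163 without culture 2 and 0.0756 without culture 3, and a log2 fold change between -0.51 and -0.46.

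Sntb1, which encodes a syntrophin, was at 32.6, 21.3 and 22.1 CPM in mock and at 25.9, 17.8 and 24.9 CPM with NRG1, lower in 2 cultures and higher in the other. Its log2 fold change of -0.13 had a 95% interval from -0.45 to 0.20 (adjusted p = 0.584). Sgcd, the gene of delta-sarcoglycan, was counted at 11, 0 and 0 reads in mock and 4, 0 and 2 reads in NRG1 samples. Outside culture 1 it was at or under 3 reads, the floor taken here, so no change could be measured at this depth.

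**Figure D2:**
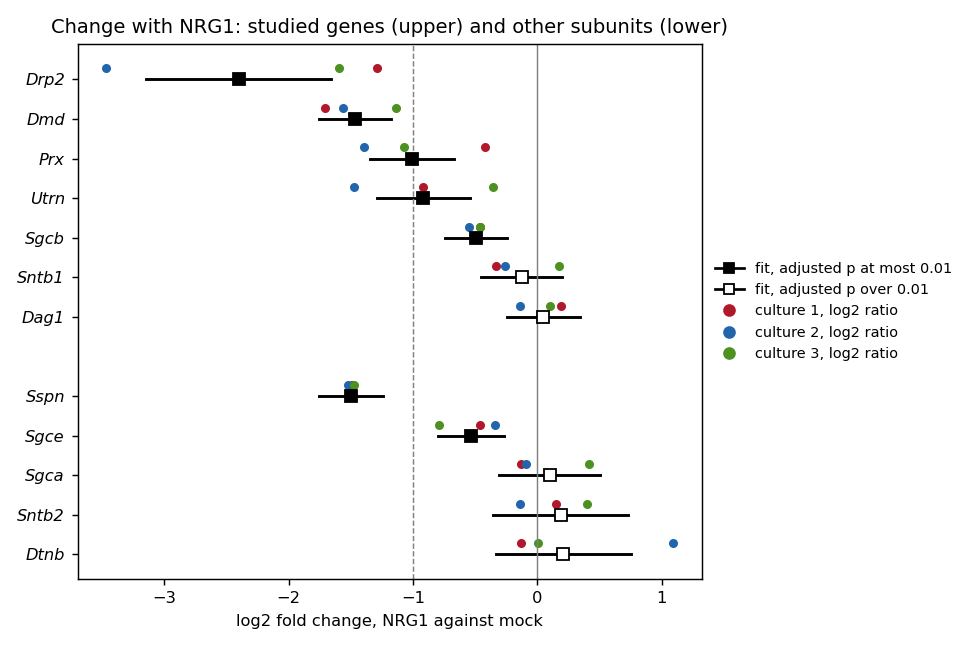
Log2 fold change of NRG1 against mock for the 7 tested genes (upper rows) and 5 other subunits of the complex (lower rows). Squares with bars are fitted values with 95% intervals, filled where the adjusted p was at most 0.01, small points are the log2 ratios of single cultures, and the dashed line is a log2 fold change of -1. Drp2, Dmd and Sspn lie beyond that line with their whole interval, while Dag1 and Sntb1 lie across 0.

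The cultures differed from each other even without NRG1. The highest mock level was 6.74 times the lowest for Drp2, 6.04 times for Prx and 5.79 times for Sgcb, and between 1.53 and 2.79 times for the other 4 tested genes. Among the mock samples Drp2, Prx, Utrn and Dag1 were lowest in culture 1, while Sgcb and Sntb1 were highest there. Culture 1 also differed in its markers of cell types. The summed level of 6 Schwann cell markers (S100b, Sox10, Ngfr, Erbb3, Cdh19 and Gfap) was 3136 and 2897 CPM in its mock and NRG1 sample, against 5305 to 6911 CPM in the other cultures. S100b, Sox10, Ngfr and Erbb3 were each lowest in culture 1 in both groups, but Cdh19 and Gfap did not follow throughout. Cdh19 in mock was at 192.9 CPM in culture 1 and 187.3 CPM in culture 3. Gfap with NRG1 was at 102 CPM in culture 1 and 54.5 CPM in cultures 2 and 3. The sum of the 8 fibroblast markers was 53420 and 57720 CPM in culture 1 and 13690 to 22330 CPM in the others. In cultures 2 and 3 nearly all of it was Col1a1 (21490 of 22330 CPM in mock culture 2), which was at 28250 CPM in mock culture 1. Col1a2, another of the 8, had at most 2 reads in any sample. Thy1 and Dcn, defining markers of fibroblasts, were at 1268 and 611.2 CPM in its mock sample and had no read in cultures 2 and 3, and the smooth muscle gene Acta2 was at 1813 CPM there and at 4.59 CPM or less in mock cultures 2 and 3. The part of these cells in the levels of the complex was not tested. Without culture 1 the log2 fold changes of Dmd, Utrn, Drp2 and Prx were -1.35, -0.91, -2.69 and -1.23, and all 4 genes passed. With 2 cultures each gene keeps 1 residual degree of freedom, and that fit took its spread almost wholly from all genes together (a median of 9930 degrees of freedom in total, against 14.4 with 3 cultures). Its p-values are therefore not comparable with those of 3 cultures, and this holds for each value without culture 1 given here. In bulk RNA fewer cells of a type cannot be told apart from less RNA per cell.

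**Figure D3:**
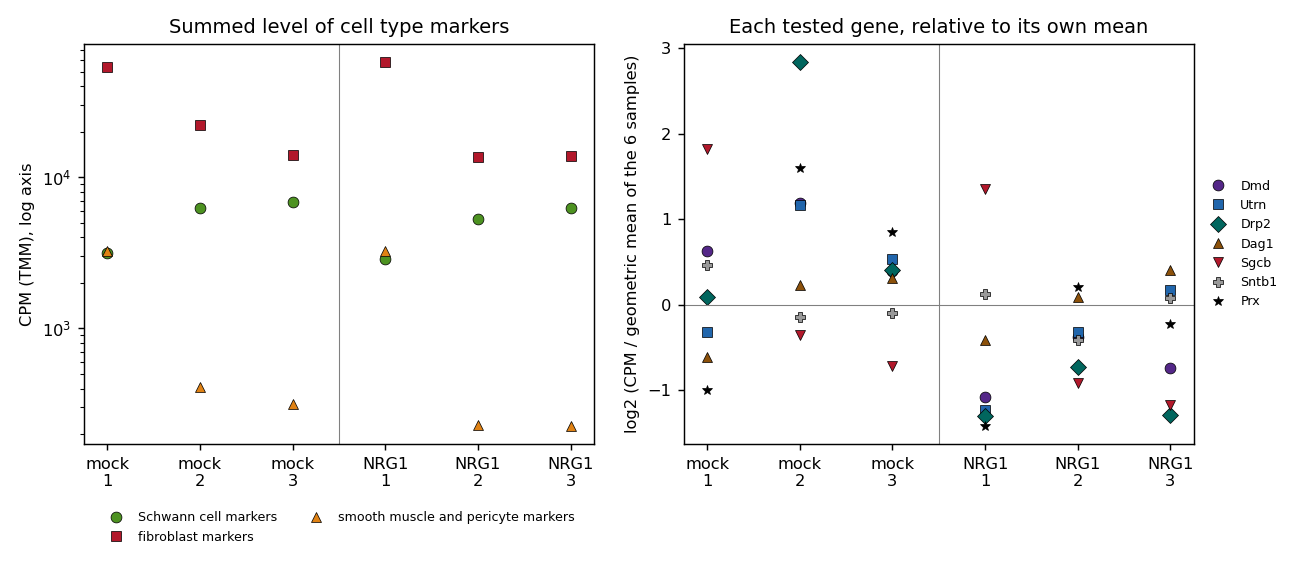
Left, summed CPM (log axis) of the Schwann cell, fibroblast, and smooth muscle and pericyte markers in each sample. Right, log2 of the level of each tested gene over its own geometric mean of the 6 samples. Culture 1 holds the highest fibroblast and the lowest Schwann cell marker sums in both groups, as well as the highest Sgcb.

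Markers of other cell types were lower, and their part in the results was not tested. The sums of the markers of skeletal muscle, a tissue rich in dystrophin, lay between 6.66 and 23.1 CPM in mock and between 5.17 and 22.9 CPM in NRG1 samples, with Actn2, Ckm and Myog at 3 reads or fewer in each sample. Others of these markers were counted, Myh1 at 33 to 162 reads in every sample, and Tnnt3 at 70 and 65 and Acta1 at 47 and 61 reads in the mock and NRG1 sample of culture 1. Endothelial markers summed to at most 14.9 CPM, nearly all of it Tek, with Pecam1, Cdh5 and Emcn at 0 reads, and macrophage markers to at most 10.3 CPM, with Ptprc at 0 reads. Perineurial markers summed to between 108.1 and 196.7 CPM, and of these Itgb4 fell and Slc2a1 rose with NRG1. The call of Slc2a1 was lost without culture 1 (adjusted p = 0.0512) and without culture 3 (adjusted p = 0.0242). Of the 6 Schwann cell markers Cdh19 and S100b fell and none rose. The call of S100b was lost without culture 1 (adjusted p = 0.0571) and without culture 3 (adjusted p = 0.136). No tested fibroblast, smooth muscle or skeletal muscle marker passed in either direction. The nearest was the fibroblast marker Col3a1, with a log2 fold change of -0.98 (adjusted p = 0.0118), which passed with RLE scaling, with no filter on low counts and without culture 1, but not with DESeq2 (adjusted p = 0.175), and which had a log2 fold change near 0 with no block for the culture. Pdgfrb, a marker of pericytes, also passed without culture 1 (log2 fold change -0.65, adjusted p = 0.0033).

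Other subunits of the complex were looked up as well. Of 9 such genes 5 had enough reads, and 2 of these fell and none rose, against 5.51% and 6.31% of all genes tested. Sspn, which encodes sarcospan, the tetraspan partner of the sarcoglycans, fell most, from 69.8, 119.7 and 94.9 CPM to 24.7, 41.5 and 34.1 CPM. Its log2 ratios of -1.49, -1.52 and -1.47 in the 3 cultures were nearly equal, and the fit gave -1.50 ± 0.12 (SE, adjusted p = 3.51e-06). Sgce, the gene of epsilon-sarcoglycan, which takes the place of alpha-sarcoglycan outside muscle, went from 97.5, 102.4 and 103.8 CPM to 70.9, 80.9 and 59.9 CPM. Its groups did not overlap, as for 20.1% of all genes tested, and its log2 fold change was -0.53 (adjusted p = 0.00726). The call of Sgce was lost without culture 1 (log2 fold change -0.57, adjusted p = 0.0122) and without culture 3 (-0.38, adjusted p = 0.164). The alpha-sarcoglycan gene Sgca, the syntrophin gene Sntb2 and the dystrobrevin gene Dtnb had log2 fold changes between 0.10 and 0.21 and did not pass.

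Of 15 genes that serve to build the laminin-binding sugar chains of dystroglycan, 12 could be tested. None passed in either direction, against 11.8% of all genes tested. The median log2 fold change of the 12 was 0.06. The highest counts among them were those of the glycosyltransferase gene Pomgnt1 and of the kinase gene Pomk. Their log2 fold changes were 0.30 and -0.21. The nearest to the threshold was Pomt1, at 0.40 with an adjusted p of 0.0336.

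Outside the cell, 1 of 5 tested ligand genes fell, against 5.51% of all genes tested. This was Agrn, which encodes agrin, at 260.3, 361.9 and 333.4 CPM in mock and 188.1, 155.7 and 264.8 CPM with NRG1. Its log2 fold change was -0.67 (adjusted p = 0.00721), and -0.40 with an adjusted p of 0.0329 without culture 2. The laminin genes with the highest counts, Lamc1, Lama4 and Lamb2, had log2 fold changes of 0.01, -0.07 and -0.36 and did not pass. Lama2 and Lamb1, the other chains of the main Schwann cell laminin, were not analysed here.

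Of the other laminin receptors 5 were tested, and 2 changed in opposite directions, where 11.8% of all genes tested changed. Itga7, an integrin subunit that pairs with Itgb1, rose from 534.7, 627.3 and 1140 CPM to 1135, 1120 and 1744 CPM, a log2 fold change of 0.85 ± 0.14 (SE, adjusted p = 0.000597). Itgb4, the integrin subunit that marks myelinating Schwann cells and also perineurial cells, fell from 61.9, 153.3 and 149.5 CPM to 22.4, 52.4 and 60.2 CPM, a log2 fold change of -1.44 ± 0.12 (SE, adjusted p = 4.59e-06). For Itgb4 every NRG1 sample was below every mock sample, and 20.1% of all genes tested had no overlap in either direction. The Itga7 groups overlapped although each culture rose. Itgb1, with a log2 fold change of 0.02, and Itga6, with -0.27, did not pass.

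Among 9 tested partners in the cytoskeleton and in signalling, 1 rose and none fell. Over all genes tested 6.31% rose and 5.51% fell. Ezr, which encodes the membrane-to-actin linker ezrin, went from 124.1, 310.3 and 334.7 CPM to 258.6, 548.7 and 591.1 CPM, a log2 fold change of 0.90 ± 0.12 (SE, adjusted p = 0.000175). The nearest to the threshold was Ank3, which encodes an ankyrin, lower in all 3 cultures with a log2 fold change of -0.55 (adjusted p = 0.014), and it passed with DESeq2 and with no filter on low counts. Plec, Ahnak and Mmp2, the 3 with the highest counts, had log2 fold changes of 0.34, -0.25 and -0.36 and did not pass. Plectin, the product of Plec, links dystroglycan and the dystrophins to intermediate filaments, and the Mmp2 gelatinase is known to cut dystroglycan.

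**Figure D4:**
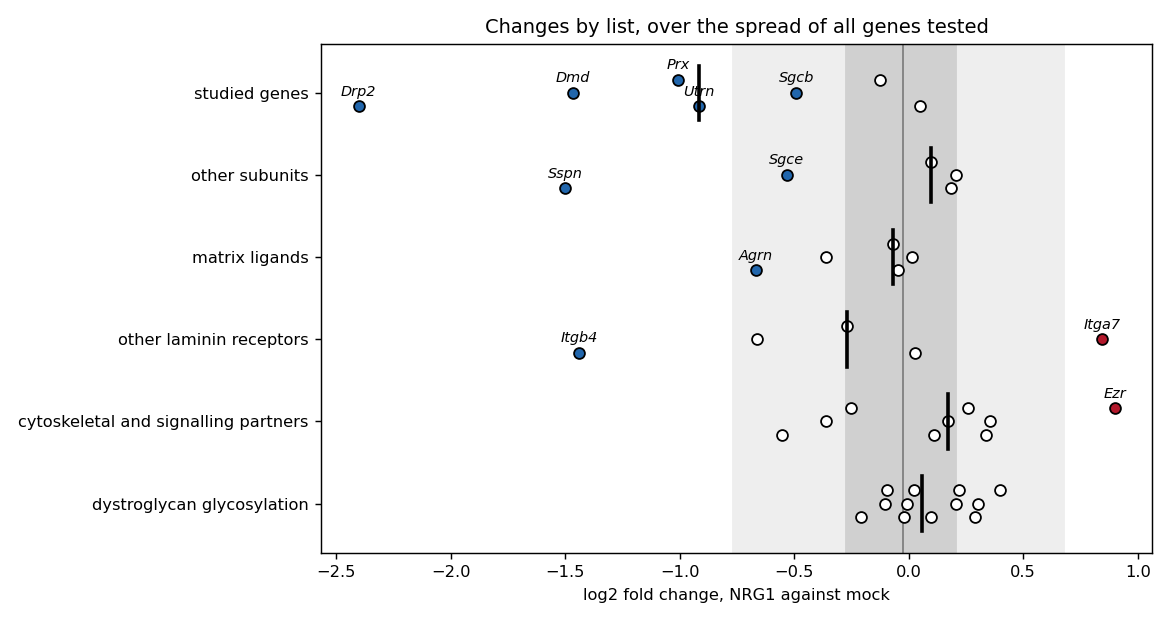
Log2 fold change of NRG1 against mock for each tested gene of 6 lists. Blue points fell and red points rose at an adjusted p of at most 0.01, open points did not pass, black bars are list medians, and the grey bands hold 50% and 90% of all genes tested. The median of the 7 genes lies at -0.92 and that of the 12 glycosylation genes at 0.06, and the bands show the spread of single genes, not of list medians.

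Over the 6 samples, the profiles of a few genes were close to those of Dmd, Drp2 and Prx on the log2 CPM scale. These genes were picked as the nearest among the 9740 tested, and with 6 samples such picking can by itself give a high r. The samples share their cultures, so part of each likeness is the difference between cultures. Another part is the difference between mock and NRG1, since all 3 genes fell, so a neighbour that fell is no separate finding. Over all genes tested 5.51% fell. The 5 genes nearest to Dmd were Sema6d, Armcx3, Pik3c3, Cd46 and Zfp157, with Pearson r between 0.9886 and 0.9956, and of these Sema6d, Armcx3 and Cd46 also fell with NRG1. Nearest to Drp2 were Ptpn13, Gen1, Mmp16, Eif4ebp3 and Zswim5 (r between 0.9767 and 0.9905), of which Ptpn13 fell. Nearest to Prx were Paqr6, Nid2, Ddah1, Vgll4 and Stim2 (r between 0.9854 and 0.9925), of which Nid2 and Ddah1 fell. None of the 3 genes was among the nearest 5 of another. Not all calls of the neighbours held in other fits. That of Cd46 was lost with DESeq2 (adjusted p = 0.0472) and whichever culture was left out. Without culture 2 those of Ptpn13 (adjusted p = 0.0112) and Nid2 (0.03) were lost. Without culture 3 those of Nid2 (adjusted p = 0.0418) and Ddah1 (0.031) were lost. Sema6d and Armcx3 kept theirs in these fits.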

How the data were processed

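The authors deposited raw counts of reads per RefSeq gene, made by mapping poly(A) RNA reads with TopHat 2.0.10 (assembly rn5) and counting with htseq, whose strand setting is not given in the sources used here. Reads on genes summed to 6821590 to 15475018 per sample, and lines for unassigned alignments, 50.1% to 53.0% of each file, were kept apart. A floor of 3 reads was 0.19 to 0.44 CPM, for counting error only. Groups and culture numbers came from the sample titles. Each number is an independent preparation of cells, so the culture was a block, as in the study. Same-numbered samples deviated together from the mean of their group (r of 0.906, 0.673 and 0.81 across genes). Between cultures 2 and 3 r was 0.514 and 0.512, and between culture 1 and the others at most -0.706. Deviations from a mean of 3 samples cancel out, which by itself favours negative r between cultures.

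Genes were filtered with filterByExpr (minimum count 10), scaled by TMM and tested with edgeR 4.0.16 in R 4.3.3, with Benjamini-Hochberg adjustment over 9740 genes. The standard error is the log2 fold change over the square root of F. Log2 ratios within cultures used a prior count of 2. Alternatives were DESeq2 1.42.0, RLE scaling, no filter, no block, a threshold of 0.05, a test against the minimum fold change, and leaving out each culture. The scripts were tested on simulated data. The genes and lists were chosen with earlier results of these data known. Genes named are the 9, list genes past the threshold, the 3 of each pathway list with the highest counts and the 5 nearest profiles. Single markers and the list genes nearest the threshold were picked after their values were seen. Some genes of the lists are not reported here, were left out of the list counts and sums, and were not replaced in the glycosylation list. Newer symbols were matched to older ones through the RefSeq table of GRCr8, in which no gene counted here overlaps one of the 9.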

Additional observations from a re-analysis of the deposited data

How the results depend on the processing

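Which genes passed depended on the pairing of the cultures. With no replicate block edgeR called 0 of the 7 genes (2 had an unadjusted p of at most 0.05), 0 of the list genes (5) and 0 of all genes (1334), with adjusted p of 0.163 for Dmd, 0.239 for Drp2, 0.465 for Utrn, 0.52 for Prx and 0.888 for Sgcb. The log2 fold change of Drp2 was then -2.74 and that of Prx -1.16. DESeq2 with the block, RLE scaling, no low-count filter and a threshold of 0.05 each called 5 of the 7, the same genes. With the fold change threshold of 1 inside the test 0 of the 7 passed (2 at an unadjusted p of at most 0.05), and Drp2 had an adjusted p of 0.028 and Dmd of 0.0527. At a threshold of 0.05, 9 list genes passed in place of 6, and 2260 of all genes in place of 1152.

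Leaving out 1 culture gave 3 to 4 of the 7 genes, 5 to 6 list genes and 661 to 1191 of all genes, and the lowest count of the 7 came without culture 2. Each of these fits has 1 residual degree of freedom per gene and leans on the spread of all genes, most of all without culture 1, so calls kept there say little about stability. Signs turned only in genes that did not pass. Without 1 culture the log2 fold changes ran from -0.019 to 0.147 for Dag1, from -0.089 to 0.215 for Sgca, from -0.084 to 0.21 for Lamc1, from -0.178 to 0.168 for Lama4, from -0.038 to 0.099 for Itgb1, from -0.047 to 0.179 for Ngfr, from -0.261 to 0.183 for Myh1 and from -0.33 to 0.102 for Col1a1. With no replicate block the sign also turned for Lamc1 (-0.012), Myh1 (0.012) and Acta2 (0.022). The cause of these differences was not tested. Genes near the floor, such as Sgcd, could not be followed at this depth.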
